A study of Mus musculus with 36 samples.

Results

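Single-strand breaks (SSBs) and abasic (AP) sites were mapped at single nucleotides in the hearts of 2 mice, and the SSB map of heart was compared with the AP map of the same organ. The members were the 4 heart lesion libraries, 2 of SSBs and 2 of AP sites, among 24 lesion libraries and 36 samples in the series. They were taken by their tissue and assay labels. The AP libraries served as the reference for differences in copy number and in how well a region can be mapped. Whether the SSB and AP protocols recover a given region equally well was not tested. Both mice were male, of strain C57BL/6J and 24 months old, and the labels name no transgene and no treatment. Each heart gave an SSB library and an AP library, so that SSB heart 1 and AP heart 1 come from 1 animal and SSB heart 2 and AP heart 2 from the other. The remaining 20 lesion libraries come from sperm, brain, liver, bone marrow and PBMCs (mononuclear cells of the blood) of the same animals. The transcriptome samples were not analysed here.

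Abasic sites form when a base is lost from the sugar-phosphate backbone, by spontaneous hydrolysis or when a DNA glycosylase removes a damaged base. In base excision repair an AP endonuclease then cuts the backbone beside the empty site, which turns the AP site into a single-strand break that a polymerase and a ligase close. Single-strand breaks also arise without an AP site, from oxidised sugars and from topoisomerases that open a strand to release torsion. Heart muscle cells of an adult mouse rarely divide and have many mitochondria, a source of reactive oxygen.

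SSB heart 1 held 446381 positions and SSB heart 2 held 1041983. AP heart 1 held 824906 positions and AP heart 2 held 693132. Each listed position was counted once, and the deposited count was above 1 at only 0.357% to 1.23% of positions. The positions lay on 21 chromosomes, the autosomes, X and Y, and none on the mitochondrial genome. Lesion positions carry no expression, so the tissue label could not be checked against marker genes. A whole heart pools muscle, vessel, connective tissue and blood cells, and a large difference in few cells and a small one in many cannot be told apart. With 2 libraries against 2, an exact permutation test cannot give a p below 0.333, so single measures are given by library and called apart only where the groups do not overlap. The 2 animals are biological replicates.

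The nucleotides that both hearts shared show the letters that each assay marked. SSB heart 1 and SSB heart 2 listed the same nucleotide on the same strand at 1124 places, 0.252% of the smaller library, and the AP libraries at 2507 places, 0.362%. Scaled by the product of the library sizes, this is 2.42 shared nucleotides per 1000000000 pairs of positions for SSBs and 4.38 for AP sites. Between an SSB and an AP library the value was 1.08 and 1.09 within an animal and 1.11 and 1.14 between animals, below both and no higher within an animal. Of the shared nucleotides, 34 SSB and 8 AP nucleotides fell in promoter windows, the 300 bases from 250 before to 50 after an annotated gene start, for which the RefSeq sequence of GRCm38 was at hand. Each is shown 5′ to 3′ on the strand of the lesion with 10 bases on either side, and the capital is the listed nucleotide. Which base relative to the lesion the listed position marks is not given in the sources used here. The first 6 SSB nucleotides, ordered by their summed count, show C, G or T in capitals.
Sys1 promoter window, chr2:164460738-164460758, minus strand: gagggaaaggGgtggaaggtc
Gm40163 and Odf2l promoter window, chr3:145118590-145118610, minus strand: gctagtaaccGgcctgcggtt
Fam185a promoter window, chr5:21424775-21424795, minus strand: ttgctttcccGttgcttcaag
Dpm2 promoter window, chr2:32570842-32570862, minus strand: taggcctttcCggcttgtaaa
Mettl5 promoter window, chr2:69885569-69885589, plus strand: tgcctctagcTggtcctcgcg
Ckap5 promoter window, chr2:91526773-91526793, plus strand: aggacactgcGgggtgtgcgg

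The AP nucleotides that can be shown number 7, and 5 of them have A in capitals.
Eif2a promoter window, chr3:58525631-58525651, minus strand: cgcgatcggcGgctgccggtg
C87436 promoter window, chr6:86438472-86438492, plus strand: tagagttgcgAggcaggtaag
Gm33862 promoter window, chr11:3136831-3136851, plus strand: tagtttccccAgatctaaagt
Gm46492 promoter window, chr14:8464957-8464977, plus strand: gacagatccgTtcctccctat
Gm36589 promoter window, chr17:13328057-13328077, minus strand: ctcttggggcAtgaggcctgt
Lipn promoter window, chr19:34067121-34067141, minus strand: atggggaagcAgactgtgttc
Gm15091 promoter window, chrX:149941616-149941636, minus strand: acactcccctAaaggcgtcct
Over all shared nucleotides in promoter windows, the listed base of the 34 SSB nucleotides was G in 18, C in 14, T in 2 and A in 0, while that of the 7 AP nucleotides was A in 5, G in 1 and T in 1.

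The same difference in letters was present over all listed positions in promoter windows. The listed base was A at 6.47% and 6.21% of SSB positions in the 2 hearts, against 41.1% and 40.9% of AP positions. C was listed at 39.2% and 38.9% of SSB positions and at 15.0% and 15.9% of AP positions. G took similar shares, 34.1% and 34.4% of SSB against 35.5% and 34.7% of AP positions. T took 20.2% and 20.6% of SSB and 8.39% and 8.54% of AP positions. In the windows themselves, both strands counted, A and T each made up 23.3% and C and G each 26.7%. The libraries of 1 assay thus differed by at most about a percentage point while the assays differed several-fold at A, and no test was made of these shares. Cytosine was enriched just before the listed base in both assays. It stood at the base before (offset -1) in 54.3% and 57.1% of SSB and in 42.1% and 41.4% of AP positions. At offset -2 the order was turned, with cytosine at 46.2% and 46.9% of SSB and 51.2% and 53.4% of AP positions. Guanine was also raised there in the AP libraries, at 38.9% and 36.7%, against 28.8% and 27.7% in the SSB libraries. A and T were rare there in the AP libraries, A at 4.15% and 4.32% and T at 5.78% and 5.52%. In the SSB libraries A stood at 11.9% and 11.8% and T at 13.1% and 13.6%.

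**Figure D1:**
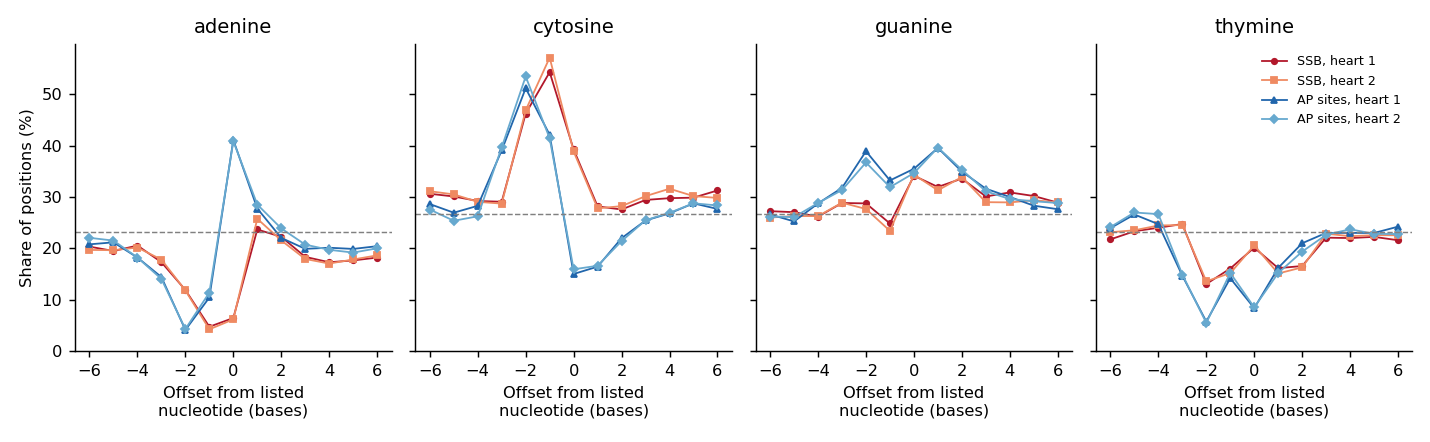
Share of each base (percent, vertical axis) by offset in bases from the listed position (horizontal axis) in promoter windows, with 1 line per heart library and the windows' own base share as reference. The SSB lines stand near 6% for A at the listed base and the AP lines near 41%, and cytosine peaks at offset -1 in SSB and -2 in AP libraries.

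CpG, the dinucleotide at which mouse DNA is methylated, made up 3.997% of dinucleotides in the windows. The base before and the listed base formed CpG at 12.97% and 14.9% of SSB positions and at 10.2% and 9.57% of AP positions. The listed base and the next formed CpG at 7.58% and 7.89% of SSB positions, against 3.78% and 3.61% of AP positions. The AP libraries were thus above the windows' share on the first side and below it on the second, and the SSB libraries above it on both. On either side of the listed base, the SSB libraries were above the AP libraries without overlap. The SSB libraries also had more C at the listed base and at the base before it. The CpG shares were not set against these single-base shares, so a preference for CpG as such was not tested.

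Promoter windows with a high share of G and C carried the SSB excess over AP sites. Density is given as LPKM, listed positions per kilobase and per 1000000 positions of the library. In the 6542 windows with 60 to 70% GC, the SSB density was 2.26 and 2.19 LPKM and the AP density 0.813 and 0.780 LPKM, a ratio of 2.79. In the 3148 windows above 70% GC the ratio was 3.05, at 1.12 and 1.10 LPKM for SSBs and 0.404 and 0.325 for AP sites. The ratio was 1.53 in the 10248 windows with 50 to 60% GC. Below that, SSB and AP densities were alike, with a ratio of 1.03 in 9611 windows of 40 to 50% GC and 1.05 in 3302 windows under 40%. SSB density itself did not increase with GC throughout, as it was lower above 70% than at 60 to 70% in both hearts, and the AP density was lower there too. How well the AP and SSB protocols sequence DNA of high GC was not tested.

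**Figure D2:**
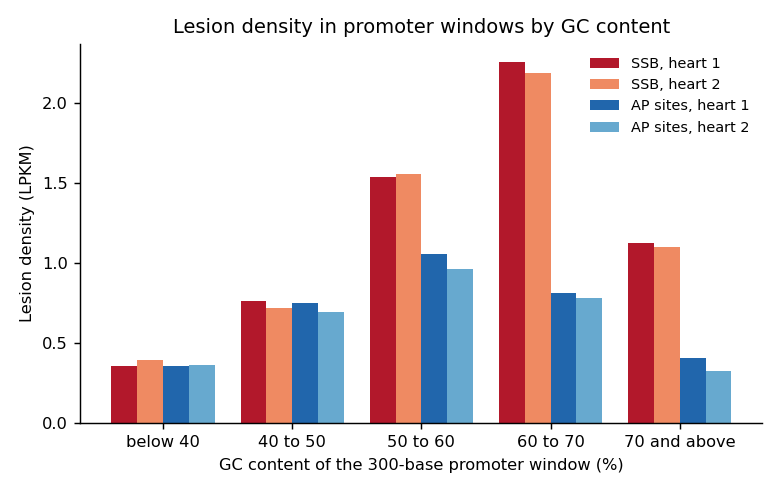
Density of listed positions in promoter windows (LPKM, vertical axis) by the GC content of the window in percent (horizontal axis), with 1 bar per heart library. SSB and AP libraries overlap in windows under 50% GC and stand apart above it, with SSBs at 2.19 to 2.26 LPKM and AP sites at 0.780 to 0.813 LPKM in windows of 60 to 70% GC.

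Of the 32851 promoter windows, 14.8% and 28.9% held a position in the SSB libraries and 17.0% and 13.4% in the AP libraries. Within each assay the deeper library covered more windows, while SSB heart 1, the shallowest of the 4, covered more than AP heart 2. To show how the letters lie in a single promoter, 3 windows with many SSB positions and none of AP, and 1 with AP positions and none of SSB, are printed. They were chosen after their values were seen and carry no test. Each holds the 250 bases before the gene start, read in the gene's direction, and capitals mark the nucleotides listed by the assay in either heart on either strand.
Mga upstream window, chr2:119896978-119897227, plus strand: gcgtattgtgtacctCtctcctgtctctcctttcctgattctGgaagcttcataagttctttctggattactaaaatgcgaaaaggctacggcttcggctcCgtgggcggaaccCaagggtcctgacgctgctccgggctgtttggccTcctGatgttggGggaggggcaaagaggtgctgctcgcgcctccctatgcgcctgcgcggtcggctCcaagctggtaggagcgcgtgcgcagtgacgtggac
H2ac21 upstream window, chr3:96219635-96219884, plus strand: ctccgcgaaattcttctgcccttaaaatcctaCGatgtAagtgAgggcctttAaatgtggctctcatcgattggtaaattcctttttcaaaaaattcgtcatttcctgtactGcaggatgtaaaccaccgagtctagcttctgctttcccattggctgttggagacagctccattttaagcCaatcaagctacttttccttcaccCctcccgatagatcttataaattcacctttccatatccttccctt
Dennd4c upstream window, chr4:86748305-86748554, plus strand: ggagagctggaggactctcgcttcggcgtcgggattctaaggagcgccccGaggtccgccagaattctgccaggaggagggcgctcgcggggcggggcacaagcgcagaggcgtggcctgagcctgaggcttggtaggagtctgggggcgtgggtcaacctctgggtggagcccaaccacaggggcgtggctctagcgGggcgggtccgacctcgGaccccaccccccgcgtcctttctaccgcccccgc
Paip2b upstream window, chr6:83831742-83831991, minus strand: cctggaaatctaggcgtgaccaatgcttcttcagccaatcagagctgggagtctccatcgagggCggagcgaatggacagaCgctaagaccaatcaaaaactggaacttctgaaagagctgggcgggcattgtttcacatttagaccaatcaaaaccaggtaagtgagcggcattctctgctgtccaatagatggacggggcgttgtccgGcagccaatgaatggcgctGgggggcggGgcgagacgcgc
The 300-base window of Mga, which encodes a MAX-dimerising transcription factor, held 2 and 7 SSB positions and 0 and 0 AP positions at 60% GC. That of H2ac21, a histone H2A gene, held 3 and 6 SSB positions and 0 and 0 AP positions at 43.7% GC, so that not every window rich in SSBs was rich in GC. The window of Dennd4c, an exchange factor for Rab proteins, held 2 and 7 SSB positions and 0 and 0 AP positions at 68% GC. The window of Paip2b, an inhibitor of translation that binds the poly(A)-binding protein, held 0 and 0 SSB positions and 3 and 2 AP positions at 57% GC. The most listed window of all, at the start of the long non-coding RNA Gm33862, held 4 and 8 SSB and 9 and 10 AP positions. Whether reads can be placed there with certainty was not tested.

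The surplus of SSBs was centred on gene starts. Density within 1 kb of the annotated starts, relative to that at 50 to 100 kb from them, was 1.95 and 1.90 in the SSB libraries, 1.93 ± 0.0331 (SD, n = 2), and 1.43 and 1.39 in the AP libraries, 1.41 ± 0.0236 (SD, n = 2). Both SSB hearts were above both AP hearts, and the ratio was 1.37. In 200-base bins the SSB density had its maximum just upstream of the start, in the bin centred 100 bases before it, at 2.56 and 2.45. The AP density had its maximum just inside the gene, in the bin centred 100 bases after the start, at 1.65 and 1.60. At 9 to 10 kb upstream, SSBs stood at 0.977 and 0.981 and AP sites at 0.9998 and 0.993.

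Gene ends did not carry that surplus. Within 1 kb of the ends, density was 1.28 ± 0.00561 (SD, n = 2) for SSBs and 1.32 ± 0.0147 (SD, n = 2) for AP sites, a ratio of 0.973. The AP libraries were slightly but without overlap above the SSB libraries, 1.31 and 1.33 against 1.28 and 1.29. In both assays the maximum lay 500 bases before the end, at 1.504 and 1.49 for SSBs and at 1.62 and 1.59 for AP sites.

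**Figure D3:**
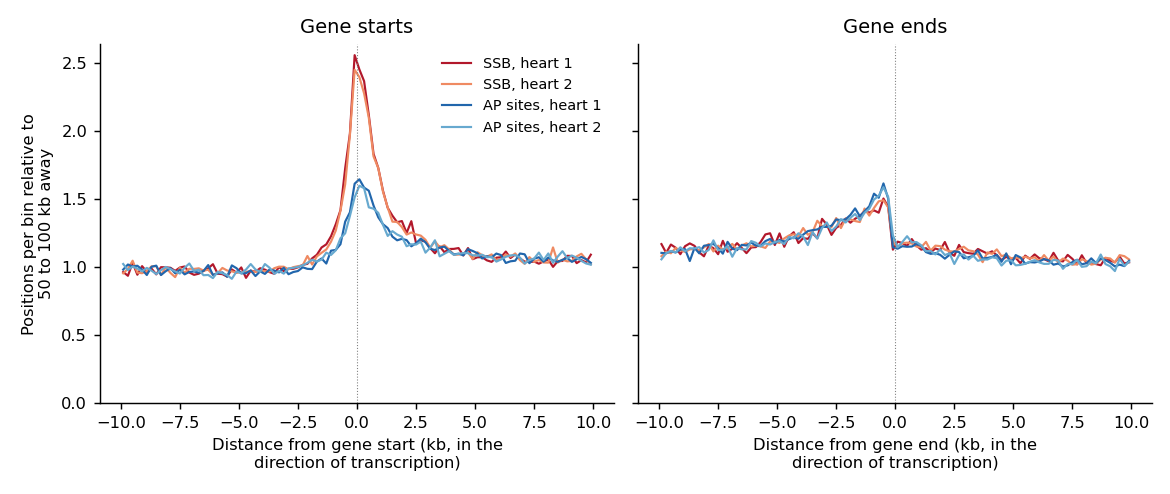
Density of listed positions relative to the density 50 to 100 kb away (vertical axis) by distance from annotated gene starts (left) and ends (right) in kilobases, with 1 line per heart library. At starts the SSB lines rise to 2.56 and 2.45 and the AP lines to 1.65 and 1.60, while at ends the AP lines peak slightly above the SSB lines.

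Heart stood second among the 6 tissues in this surplus. The log2 ratio of SSB to AP density at gene starts was 0.45 and 0.45 in the 2 hearts, and over the 10 animal and tissue values of the other organs it ran from 0.06 to 0.58 with a median of 0.27. The geometric mean ratio was 1.44 in bone marrow, 1.37 in heart, 1.31 in liver, 1.21 in brain, 1.08 in sperm and 1.06 in PBMCs. Heart lay between bone marrow and liver, which were at 0.58 and 0.47 and at 0.44 and 0.35 on the log2 scale, so that neither neighbour stood far from it. Heart against the other organs gave p = 0.242 in an exact two-sided permutation test. After Benjamini-Hochberg adjustment over the 8 measures compared in this way it was 0.646. The smallest p this test can give is 0.0303. The test treats the 2 values of a tissue as independent, although they share the tissue, so its p can be too small.

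Within genes, SSBs lay more often on the coding strand, the one with the sequence of the transcript, than AP sites did. The share on the coding strand was 53.7% ± 0.0678 (SD, n = 2) for SSBs and 50.6% ± 0.209 (SD, n = 2) for AP sites, with both SSB hearts above both AP hearts. The other tissues showed the same direction in all 10 values, with a log2 ratio of 0.07 to 0.14 against 0.08 and 0.09 in heart (exact permutation p = 0.485, adjusted 0.776). Around the starts of 7947 protein-coding genes longer than 20 kb, the strand share changed across the start. At 0.5 to 2 kb inside the gene it was 56.2% in both SSB libraries and 49.0% in both AP libraries. At 0.5 to 2 kb upstream it was 47.2% in both SSB libraries, below an equal split, and 49.96% and 49.6% in the AP libraries. The SSB share stayed at 54.8% and 55.2% at 2 to 5 kb and at 55.7% and 55.2% at 5 to 10 kb, where AP sites were at 51.6% and 50.9% for 2 to 5 kb. Within 500 bases upstream, AP sites were at 53.1% and 56.1% and SSBs at 52.2% and 52.9%, so the assays were not ordered there as in the gene body. Before gene ends the SSB libraries were again higher, at 53.5% and 53.6% in the stretch from 10 to 5 kb before the end, where both AP libraries stood near an equal split. In the last 0.5 kb of the gene the share was 57.0% and 56.6% for SSBs and 54.2% and 53.9% for AP sites. Wilson 95% intervals in the bin at 0.5 to 2 kb ran from 54.8% to 57.6% and from 55.2% to 57.1% for SSBs and from 47.8% to 50.2% and 47.6% to 50.4% for AP sites, and cover counting error only.

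**Figure D4:**
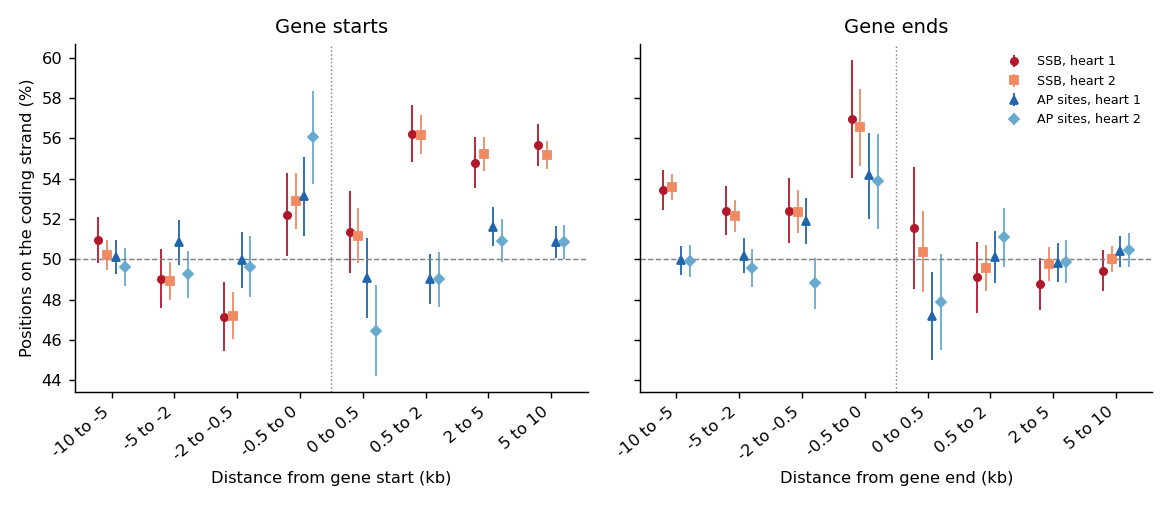
Share of listed positions on the coding strand (percent, vertical axis) by distance from the start (left) and end (right) of protein-coding genes longer than 20 kb, with 1 point per heart library, bars for Wilson 95% intervals and the line of an equal split. SSBs stand at 56.2% in the bin 0.5 to 2 kb inside the gene and at 47.2% in the bin 0.5 to 2 kb upstream, while AP sites stand at 49.0% and at 49.6 to 49.96%.

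Single genes differed in few cases. Of 18386 genes with at least 20 positions over the 4 libraries, 5 had a higher share of SSB than of AP positions (0.0272% of those tested) and 3 a lower one (0.0163%), by edgeR's quasi-likelihood test at a Benjamini-Hochberg adjusted p of 0.05. At an unadjusted p under 0.05 there were 785 genes with more SSBs (4.27%) and 773 with more AP sites (4.2%). The median log2 difference over all genes tested was 0.003. With the animal as a block, since both assays came from the same heart, 19 genes passed, 13 with more SSBs and 6 with more AP sites, and all 8 were among them. Leaving out SSB heart 1, SSB heart 2, AP heart 1 or AP heart 2 gave 5, 3, 4 and 8 genes, of which 4, 2, 3 and 4 were among the 8. There the lone library is assumed to vary like the other group.

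Tmem267, a protein-coding gene at chr13:119488086-119610459 (GRCm38), had the smallest adjusted p by edgeR. It held 44 and 110 SSB positions and 19 and 23 AP positions, a density of 0.805 and 0.863 LPKM against 0.188 and 0.271 LPKM. The SSB hearts lay about alike and well above the AP hearts, by 1.87 ± 0.233 (SE) on the log2 scale (edgeR adjusted p = 3.23e-07). Divided into 10 equal parts, the gene held positions only in part 1 (13 SSB and 10 AP), part 9 (38 and 7) and part 10 (103 and 25), and 0 in parts 2 to 8 in all 4 libraries. The densities above are per kilobase of the whole span, empty parts included, and whether reads can be placed in those parts was not tested. The SSB surplus lay at the 3′ end of the gene. It was present in every tissue, with a log2 ratio of SSB to AP density from 1.46 in sperm to 2.25 in PBMCs against 2.10 and 1.67 in heart.

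AY036118, a long non-coding RNA on the minus strand at chr17:39848112-39898385, overlaps at its 3′ end Rn18s-rs5, at chr17:39846354-39848202, a pseudogene related to the ribosomal RNA genes. Those genes exist in many near-identical copies, whose reads cannot be placed with certainty, and the values here are therefore uncertain. It held 46 and 102 SSB positions (2.05 and 1.95 LPKM) and 38 and 13 AP positions (0.916 and 0.373 LPKM), 1.54 ± 0.236 on the log2 scale (edgeR adjusted p = 7.99e-05). The AP hearts differed from each other more than the SSB hearts did. Nearly all positions lay in the last of 10 parts, 139 of SSBs and 43 of AP sites. These first-named genes, Tmem267 and AY036118, were the ones that also passed without any 1 of the 4 libraries, with adjusted p of at most 0.000538 and 0.0433. By DESeq2 only Tmem267 passed, at an adjusted p of 0.0159, and AY036118 was at 0.9999.

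Of the other 3 genes with more SSBs, each encodes a regulator of signalling or transcription. Tgfb1 encodes transforming growth factor beta 1, a secreted cytokine that drives fibroblasts to make matrix, and lies at chr7:25687002-25705077. It held 8 and 28 SSB positions (0.991 and 1.49 LPKM) but 3 and 2 AP positions (0.201 and 0.160 LPKM), 2.79 ± 0.553 on the log2 scale (edgeR adjusted p = 0.0169). In the first 3 of its 10 parts there were 7, 11 and 5 SSB positions and 0 AP positions. Without SSB heart 2, AP heart 1 or AP heart 2 its adjusted p was 0.463, 0.120 and 0.0936, so the call rested on each of these libraries.

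Zbtb7a, a zinc-finger repressor of transcription at chr10:81135225-81152222, held 9 and 23 SSB positions (1.19 and 1.30 LPKM) and 3 and 1 AP positions (0.214 and 0.0849 LPKM), 2.93 ± 0.600 on the log2 scale (edgeR adjusted p = 0.0235). Its adjusted p was 0.306, 0.0848 and 0.180 without SSB heart 2, AP heart 1 and AP heart 2. Bcl9l, a coactivator of beta-catenin in Wnt signalling at chr9:44482738-44511906, held 25 and 58 SSB positions (1.92 and 1.91 LPKM) and 17 and 16 AP positions (0.707 and 0.791 LPKM). The libraries of each assay were alike, and the difference was 1.33 ± 0.283 on the log2 scale (edgeR adjusted p = 0.0305). Leaving out any 1 library took its adjusted p to between 0.0701 and 0.375.

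Among genes with more AP sites, the titin gene stood first. Ttn, at chr2:76703980-76982557, encodes the giant spring protein that spans the sarcomere from Z-disc to M-band and is among the most abundant proteins of heart muscle. It held 81 and 203 SSB positions (0.651 and 0.699 LPKM) and 226 and 209 AP positions (0.983 and 1.08 LPKM). Both AP hearts were above both SSB hearts, and the difference was -0.61 ± 0.122 on the log2 scale, 1.53-fold more AP sites than SSBs (edgeR adjusted p = 0.0169). The call was lost without SSB heart 1 (adjusted p = 0.0784), SSB heart 2 (0.306) or AP heart 2 (0.0971), and was kept without AP heart 1 (0.00382). With the animal as a block the adjusted p was 0.00157, and over all alternatives it ran from 0.00157 to 0.9999. Along the gene, the last 3 of 10 parts held 31, 31 and 33 SSB positions and 52, 76 and 62 AP positions. The ratio was below 1 in all tissues, with a log2 value of -0.59 and -0.63 in the hearts and -0.06 to -0.58 elsewhere. The difference of heart from the other tissues was -0.29 and did not pass the test (edgeR adjusted p = 0.999).

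Ptprn2, a phosphatase-like receptor of secretory granules at chr12:116485695-117278167, held 212 and 451 SSB positions (0.599 and 0.546 LPKM) and 504 and 408 AP positions (0.771 and 0.743 LPKM), -0.44 ± 0.0933 on the log2 scale (edgeR adjusted p = 0.0305). D7Ertd443e, at chr7:134265780-134520159, held 44 and 112 SSB positions (0.387 and 0.423 LPKM) and 148 and 109 AP positions (0.705 and 0.618 LPKM), -0.71 ± 0.152 (edgeR adjusted p = 0.0305). For both, the groups were well apart, and the call was kept in 1 of the 4 fits that left out a library, the one without AP heart 2, at adjusted p of 0.00782 and 0.0218. Without SSB heart 1, SSB heart 2 and AP heart 1 the adjusted p was 0.0701, 0.605 and 0.0648 for Ptprn2 and 0.103, 0.394 and 0.263 for D7Ertd443e.

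Next in the list but not past the threshold were Clstn2, which encodes a synaptic calsyntenin, and the non-coding Gm46969. Clstn2 held 150 and 379 SSB and 413 and 305 AP positions, -0.44 on the log2 scale, with an adjusted p of 0.0846 and of 0.0467 with the animal as a block. Gm46969 held 3 and 7 SSB and 23 and 16 AP positions, with an adjusted p of 0.103.

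**Figure D5:**
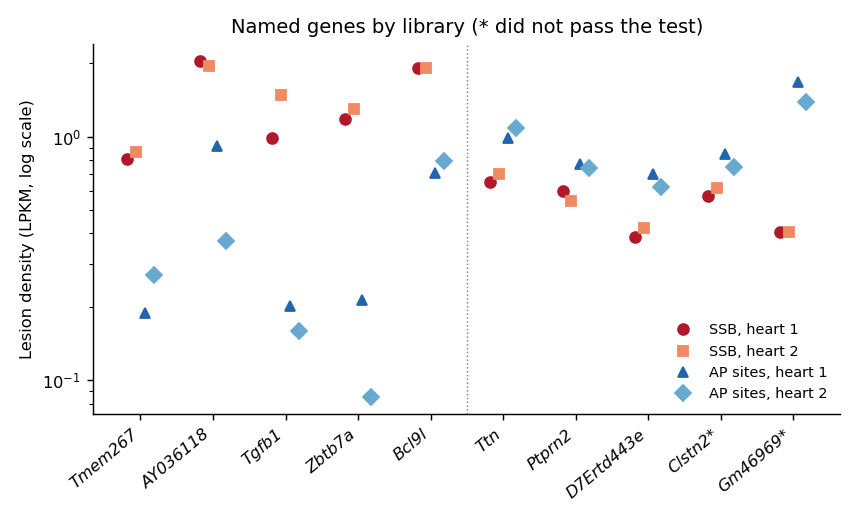
Density of listed positions (LPKM, vertical axis, log scale) of the 10 named genes in each heart library, 1 point per library, with an asterisk at genes that did not pass the test. The SSB points stand above the AP points from Tmem267 to Bcl9l and below them from Ttn to Gm46969, and the AP points of AY036118 and Zbtb7a lie farthest from each other.

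The fit with the animal as a block added 11 genes. With more SSBs these included Pou2f2, a B-cell transcription factor (34 and 84 SSB against 37 and 21 AP positions), Dgkz, a diacylglycerol kinase (30 and 60 against 25 and 16), Stk10, Sec14l1, Mdfic, Gm46294 and Zfp710. With more AP sites they were Clstn2, Mark1, a kinase of microtubule-associated proteins (16 and 50 against 58 and 63), and Neb. Neb encodes nebulin, the ruler of thin filaments in skeletal muscle, and held 52 and 79 SSB positions and 101 and 114 AP positions, -0.71 ± 0.164 on the log2 scale in that fit (edgeR adjusted p = 0.0203). Without the block its adjusted p was 0.128.

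The genes of the contractile apparatus were described as a list. Of 30 sarcomere genes, 23 had enough positions, 1 had more AP sites (Ttn) and 0 had more SSBs, and 2 in each direction had an unadjusted p under 0.05, beside 0.0163% (more AP sites) and 0.0272% (more SSBs) of all genes past the adjusted threshold and 4.2% and 4.27% at the unadjusted one. Their median log2 difference was 0.03 against 0.003 over all genes, while their summed density was 0.629 and 0.648 LPKM for SSBs and 0.686 and 0.725 for AP sites, a ratio of 0.906. Median and sum thus differ in sign, and the sum is weighted by the large Ttn and Neb. Among those with most positions, Nebl was at 0.03, Myom1 at -0.12 and Myom2 at -0.40 on the log2 scale, none of them past the threshold.

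Genes of cardiac ion handling were described in the same way. Of 30 genes, 28 were tested and 0 passed in either direction, with 2 (more SSBs) and 1 (more AP sites) at an unadjusted p under 0.05 by edgeR, beside 4.27% and 4.2% of all genes, and the summed ratio was 0.9997. Cacna1c, the pore of the L-type calcium channel, held 210 and 467 SSB and 479 and 341 AP positions, -0.26 ± 0.0957 on the log2 scale (edgeR adjusted p = 0.413). Ryr2, the calcium release channel, was at -0.08, Slc8a1, the sodium-calcium exchanger, at -0.10 and Fhod3, a formin of the sarcomere, at -0.11, none past the threshold.

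In the other lists 0 genes passed in either direction by edgeR. By DESeq2, Tmem267, the gene that passed, is in none of the lists. The summed ratio of SSB to AP density was 0.954 for cardiac metabolism, 0.997 for cardiac transcription factors, 1.02 for the dystrophin complex and 0.957 for base excision and single-strand break repair. It was 0.974 for fibroblast and matrix genes, 0.943 for endothelial genes, 1.03 for smooth muscle and pericyte genes and 0.997 for blood and immune genes. Of 35 very long neuronal genes, 8 had an unadjusted p under 0.05 with more AP sites (4.2% of all genes) and 1 with more SSBs (4.27% of all genes), at a summed ratio of 0.951, with Csmd1 at -0.28 and Nrxn3 at -0.25 on the log2 scale. Dmd, the long dystrophin gene on the X chromosome, was at 0.29 ± 0.117 (edgeR adjusted p = 0.467).

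Developmental, immediate early and histone genes lay on the SSB side. The 39 Hox genes had a summed density of 1.05 and 1.22 LPKM for SSBs and 0.848 and 0.831 for AP sites, a ratio of 1.35, and 12 of them could be tested. The 27 immediate early genes, which respond within minutes to a stimulus, had 1.15 and 1.09 against 0.873 and 0.804 LPKM, a ratio of 1.33, with 7 tested. The 23 core histone genes had 0.920 and 1.01 against 0.591 and 0.666 LPKM, a ratio of 1.53. They held only 16 and 41 SSB and 19 and 18 AP positions together, and none had enough positions for a test. In these 3 lists the summed densities of both SSB hearts were above those of both AP hearts. In the sarcomere, cardiac metabolism, very long neuronal and vomeronasal receptor lists both SSB hearts were below both AP hearts. Over all genes tested, taken singly, both SSB hearts were above both AP hearts in 20.2% and below both in 18.2%. These shares are for single genes and not for summed lists. Summed over all protein-coding genes of 1 to 10 kb, both SSB hearts were also above both AP hearts, at a ratio of 1.15. The lists were not set against genes of like length, so a trait of these gene classes as such was not tested. The 34 ribosomal protein genes had a ratio of 1.05, with AP libraries of 1.19 and 0.775 LPKM on either side of the SSB libraries. The receptor families stood lower, at 0.946 for olfactory and 0.926 for vomeronasal receptors.

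Among protein-coding genes, the ratio moved with gene length. Densities here are summed positions over the summed length of a class. In 6295 genes of 1 to 10 kb the density was 0.869 and 0.858 LPKM for SSBs and 0.783 and 0.721 for AP sites, a ratio of 1.15. The ratio was 1.07 for genes of 10 to 30 kb, 1.02 for 30 to 100 kb, 0.978 for 100 to 300 kb and 0.944 for the 498 genes of 300 to 1000 kb. Above 1000 kb it was 0.959 in 59 genes.

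Windows of 100 kb gave a comparison that does not depend on gene models. Of 24848 windows tested, 14 had more SSBs (0.0563%) and 3 more AP sites (0.0121%) by the same edgeR test, and 1130 (4.55%) and 1005 (4.04%) had an unadjusted p under 0.05. The windows with more SSBs held a median of 6 genes and the tested windows a median of 2, and 5 of the 14 held 8 or more genes, against 3.32% of those tested. The count was 6, 2, 14 and 5 without SSB heart 1, SSB heart 2, AP heart 1 and AP heart 2, of which 5, 2, 6 and 2 were among the 17.

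The first window, chr17:39800001-39900000, holds Rn18s-rs5 and AY036118. It had 317 and 650 SSB positions and 195 and 130 AP positions, 1.63 ± 0.153 on the log2 scale (edgeR adjusted p = 3.20e-16). The second, chr13:119500001-119600000, lies within Tmem267 and had 28 and 53 SSB positions and 5 and 8 AP positions, 2.64 ± 0.355 (edgeR adjusted p = 5.77e-08). These passed under every alternative that gave a value, 14 for the first and 13 for the second. The other named windows among the 17 passed in 7 to 9 of their alternatives.

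The next 8 windows lay on chromosomes 10, 7, 6 and 5 and held 2 to 10 genes. The window chr10:80100001-80200000, with Stk11, the kinase LKB1, Atp5d, a subunit of ATP synthase, Cirbp, Midn, Sbno2, Efna2, Cbarp and Fam174c, had 61 and 124 SSB and 59 and 35 AP positions, 1.01 ± 0.202 on the log2 scale (edgeR adjusted p = 0.0121). A window of the same chromosome, chr10:81100001-81200000, holds Zbtb7a, Map2k2, Pias4 and Eef2, the translation elongation factor 2, and had 50 and 128 SSB and 59 and 38 AP positions (0.89 ± 0.201). The window chr5:139500001-139600000 holds the homeobox gene Uncx and had 28 and 90 SSB and 32 and 24 AP positions (1.09 ± 0.236). The other 5 named windows with more SSBs were at chr7:15900001-16000000 (Selenow, Nop53, Ehd2 and Bicra), chr6:47700001-47800000 (Pdia4 and the Y RNA genes Rny1 and Rny3), chr7:27300001-27400000 (Ltbp4, Shkbp1 and Sptbn4), chr7:4800001-4900000 (Ube2s and Shisa7) and chr6:83100001-83200000 (Dctn1 and Rtkn among 10 genes), with log2 values from 0.93 to 1.495.

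The 3 windows with more AP sites held 1 to 3 genes. The window chr2:76700001-76800000 lies in Ttn and had 32 and 79 SSB and 109 and 104 AP positions, -0.92 ± 0.192 on the log2 scale (edgeR adjusted p = 0.0172). That is the end of the gene, on the minus strand, with the surplus in the last parts described above. The window chr7:78200001-78300000 holds Ntrk3, the neurotrophin-3 receptor, and had 19 and 39 SSB and 60 and 62 AP positions (-1.05 ± 0.233). The window chr3:87200001-87300000 holds Fcrls and had 7 and 23 SSB and 39 and 37 AP positions (-1.31 ± 0.295). A window with Gm9923, chr10:72300001-72400000 (adjusted p = 0.0506), and a window in Neb, chr2:52200001-52300000 (0.0988), did not pass, the first of them passing with the animal as a block (0.0483).

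Windows reaching 5 kb to either side of gene starts and ends were tested singly as well. Of 10318 start windows, 3 had more SSBs (0.0291%) and 2 more AP sites (0.0194%), all 5 with an edgeR adjusted p of 0.0430, while 462 (4.48%) and 392 (3.8%) had an unadjusted p under 0.05. TMM scaling, which centres the fit, removed the general surplus at starts here, since the median log2 difference was 0.007 with it and 0.24 with library size alone, when 0 windows passed, with 845 and 168 at an unadjusted p under 0.05. The calls were Gm52862 (7 and 16 SSB and 1 and 0 AP positions), Tmem125 (14 and 31 against 7 and 1) and Gm40237, whose window overlaps that of Tmem125, and with more AP sites Gm33862 (105 and 232 against 232 and 177, -0.48 ± 0.0603 on the log2 scale) and Gm52039 (1 and 1 against 10 and 11). With library size alone Gm33862 was at -0.25 on the log2 scale (edgeR adjusted p = 0.409), and over its alternatives the adjusted p ran from 0.00176 to 0.9999. The start window of Gm33862 was dense in both assays, at 23.5 and 22.3 LPKM for SSBs and 28.1 and 25.5 for AP sites. The other called start windows were at most at 3.14 LPKM. Whether reads can be placed with certainty at Gm33862 was not tested, so its values are uncertain. No fold is given for the windows with few positions on 1 side. Without any 1 of the 4 libraries 0 windows passed by edgeR, with 216 to 340 at an unadjusted p under 0.05 and more SSBs, and by DESeq2 0 passed, with 38. Below the threshold came Nkain1 and Ptma with more SSBs and Adra2c, Gm34945 and Gm46969 with more AP sites.

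Of 10429 end windows, 4 had more SSBs (0.0384%) and 1 more AP sites (0.00959%), and 461 (4.42%) and 394 (3.78%) had an unadjusted p under 0.05. The end window of AY036118, which covers Rn18s-rs5, had 310 and 641 SSB and 185 and 124 AP positions, 1.60 ± 0.151 on the log2 scale (edgeR adjusted p = 1.22e-20). The others were 2810408A11Rik (11 and 15 against 1 and 0), Gm40237 (14 and 31 against 5 and 2) and Ptma, the gene of prothymosin alpha (11 and 19 against 2 and 2). Gm52039 had more AP sites (1 and 0 SSB against 10 and 9 AP positions), and with the animal as a block it did not pass (edgeR adjusted p = 0.0734). The count was 5 without SSB heart 1, 2 without SSB heart 2 and 0 without AP heart 1 or AP heart 2, where 287 and 209 windows had more SSBs at an unadjusted p under 0.05. Gm11465, Gm4890, Morn5, Gm38887 and Gm44040 were next but did not pass.

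The larger compartments given here differed by a ratio of at most 1.15. Of 2613 windows of 1 Mb, however, 86 passed the edgeR test, 48 with more SSBs and 38 with more AP sites. Positions within genes made up 60.9% ± 0.0622 of SSBs and 61.1% ± 0.540 of AP sites (SD, n = 2), and the groups overlapped. The 831 windows with 8 or more genes held 4.97% ± 0.00680 of SSBs and 4.34% ± 0.168 of AP sites (SD, n = 2), without overlap and at a ratio of 1.15. The 4350 windows without a gene held 8.999% ± 0.00307 and 8.87% ± 0.407, with overlap. The X chromosome held 1.83% ± 0.00791 of SSBs and 1.67% ± 0.0801 of AP sites, a ratio of 1.09, and the Y chromosome 0.131% ± 0.000709 and 0.118% ± 0.00510, a ratio of 1.11 (SD, n = 2). On the Y chromosome heart was higher in ratio than all 10 values of the other tissues, at 0.19 and 0.11 against -0.40 to 0.02 on the log2 scale. The exact permutation p was 0.0303, the smallest possible, and 0.242 after adjustment over 8 measures. The 10 values come in pairs from the same tissue and were treated as independent, so this p can be too small.

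Whether the SSB to AP ratio of a gene was particular to heart was tested in a fit of all 24 libraries. Of 32220 genes and of 25743 windows, 0 passed in either direction (0%) by edgeR. At an unadjusted p under 0.05, 1152 genes were higher (3.58%) and 469 lower (1.46%) in heart, and 684 windows higher (2.66%) and 537 lower (2.09%). Of 24241 genes at an equal depth of 225011 positions per library, 503 were higher and 524 lower at that p, so the surplus of higher genes was not kept. The median log2 difference over genes was 0.11 in the main fit, 0.000739 at equal depth and -0.0143 without SSB heart 2. Tgfb1 was the one of the 8 genes above that was also among the first 5 on the heart side, 2.56 ± 0.655 on the log2 scale higher in heart, with an adjusted p of 0.969. Its log2 ratio was 2.30 and 3.22 in the hearts and -1.36 to 1.13 in the other tissues. Gm35007, Gm33680, Gm5548 and Slc25a43 were the other genes first on the heart side, and Krt86, Gm30589, Gm46487, Igf1os and Gm35828 were first on the opposite side, most of them with few positions. Igf1os, antisense to the gene of insulin-like growth factor 1, held 6 and 19 SSB and 26 and 23 AP positions in heart. The first window was chr8:75800001-75900000 in Iqcm, with 11 and 23 SSB and 5 and 3 AP positions, 2.72 ± 0.610 (edgeR adjusted p = 0.212). A window with Vmp1 and Mir21a, chr11:86500001-86600000, had 20 and 71 SSB and 26 and 15 AP positions, 1.15 ± 0.303 in this contrast. Also among the first were chr7:15900001-16000000, chr14:91300001-91400000 and chrX:57400001-57500000 on the heart side. On the opposite side stood chr1:131600001-131700000, chr9:31800001-31900000 near Barx2, chr10:72300001-72400000 and chr2:102400001-102500000.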

How the data were processed

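Genomic DNA of whole organs of 2 mice was profiled by SSiNGLe for SSBs and SSiNGLe-AP for AP sites. The authors deposited, per library, a list that gives each damaged nucleotide's position, its strand and a count of reads, on GRCm38 (mm10 in the submitters' processing notes, which also name RSEM 1.2.28). The aligner and its filters are not given in the sources used here. The deposited count was used only in an alternative, and each position otherwise counted once.

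Positions on either strand were counted in 49603 RefSeq genes of GRCm38.p6 (27025 with a strand), in 100 kb windows and within 5 kb of gene starts and ends. Genes placed in the first 3 Mb of chromosomes other than Y, which carry scaffold coordinates, were left out. Exons were not counted, since no exon table was at hand. LPKM is positions per kb and per 1000000 positions. SSB and AP libraries of heart were compared with edgeR 4.0.16 (quasi-likelihood, TMM, library size of all positions, at least 20 positions in all 4 libraries together) in R 4.3.3, with Benjamini-Hochberg adjustment and a threshold of 0.05. Single measures were compared by exact permutation. Alternatives used DESeq2 1.42.0, limma 3.58.1 on log2(LPKM + 1), other scalings, filters, window sizes and samples, and thinning to equal depth. Thinning was to 446381 positions for the 4 heart libraries. For heart against the other tissues it was to 225011, the size of the smallest of the 24 libraries.

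Libraries of 1 number come from the same heart by the labels, so the number pairs them. The correlation of their deviations from the group means was 0.004 over windows, 0.007 over 1 Mb windows and 0.018 over genes. On simulated counts with 200 changed features, 21% of 2-fold and 75% of 4-fold changes were recovered for genes in heart, 54% and 98% for windows, 2% and 35% for start windows and 0% and 3% for end windows. Named features were, per fit and direction, the up to 10 of smallest p that passed, or else the first 5; of the lists, members that passed and those with most positions. A few features that the rule names are not reported here. The members and the 17 gene lists were chosen with earlier results of these data known. Promoter sequences are from RefSeq. Python 3.11.15 with scipy 1.17.1 was used for counts and intervals.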

Additional observations from a re-analysis of the deposited data

Results flagged for a closer look

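Measures in which the SSB to AP ratio moved one way in both hearts and the opposite way in both samples of another tissue are given here, and no pairwise difference was tested. Values are log2 ratios of SSB to AP. At gene ends they were -0.03 and -0.05 in heart and 0.02 and 0.003 in bone marrow, a difference of -0.0489. For the share of chromosome X they were 0.17 and 0.08 in heart and -0.26 and -0.34 in sperm, a difference of 0.43. For the share of chromosome Y they were 0.19 and 0.11 in heart, against -0.33 and -0.05 in bone marrow (difference 0.34), -0.20 and -0.07 in liver (0.28) and -0.40 and -0.40 in sperm (0.55). Sperm DNA was extracted with another kit than that of the other tissues, so tissue and kit cannot be told apart there.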

How the results depend on the processing

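Few single features passed at this depth, and the share passing was larger where features held more positions. In the main fits 8 of 18386 genes and 17 of 24848 windows passed. With at least 100 positions these were 25 of 4376 genes and 62 of 14545 windows. Of 2613 windows of 1 Mb, 86 passed. Of genes, 8 passed, and 1 by DESeq2, 25 among genes with at least 100 positions, 0 at equal depth (427 and 405 at an unadjusted p under 0.05), 19 with the replicate block, 0 by limma on log2(LPKM + 1) (854 and 509) and 3 to 8 without 1 library. Of 100 kb windows, 17 passed, and 2 by DESeq2, 62 with at least 100 positions, 2 at equal depth, 86 for 1 Mb windows (48 with more SSBs and 38 with more AP sites), 22 with the block and 2 to 14 without 1 library. Of start windows, 5 passed, and 0 by DESeq2, 0 with library size only, 1 with DESeq2 size factors, 3 at equal depth, 1 for 2 kb on each side and 0 to 0 without 1 library. Of end windows, 5 passed, and 1 by DESeq2, 3 with library size only, 8 for 2 kb on each side and 0 to 5 without 1 library. Beyond the calls given with the results, the pairing by animal added 4 windows and changed no other call. Heart against the other tissues gave 0 under every alternative run.

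The log2 ratio at gene starts, 0.45, was 0.56 within 500 bp, 0.31 within 2 kb, 0.55 for protein-coding genes, 0.45 with summed counts and 0.43 to 0.47 without 1 library. At gene ends it was -0.04, and -0.0295 within 500 bp, -0.0216 within 2 kb, -0.0713 for protein-coding genes and -0.0509 to -0.0281 without 1 library. The share within genes was at 0.000692 for protein-coding genes and -0.0137 to 0.00429 without 1 library. The gene-dense and gene-free shares were both at 0.10 with other class limits (5 or more genes, or 100 kb from any gene), and the gene-free share at -0.0251 to 0.0687 without 1 library. The coding-strand share was at 0.0922 for protein-coding genes and 0.0812 to 0.0897 without 1 library.

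Relative to the median of all genes, ion handling was at -0.0208 and olfactory receptors at -0.10. Leaving out 1 library, chosen for the lists after seeing the data, gave -0.18 to -0.10 for sarcomere, -0.0283 to 0.0267 for ion handling, -0.11 to -0.0242 for metabolism, -0.0766 to -0.000699 for fibroblast, 0.000567 to 0.0792 for smooth muscle, 0.36 to 0.48 for immediate early, 0.53 to 0.71 for histone and -0.13 to -0.0352 for olfactory receptor genes. The sign turned also for ribosomal protein genes (-0.20 to 0.42), cardiac transcription factors (-0.11 to 0.11), blood and immune genes (-0.09 to 0.08), repair genes (-0.14 to 0.01) and the dystrophin complex (-0.01 to 0.08). No direction of a called result was turned. Of the values of single features under alternatives, 1350 kept their side of the threshold, 172 lost it and 22 gained it. The causes were not tested. The mitochondrial share was not run, since no such positions are listed.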
